A study of Mus musculus with 12 samples.

Results

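Transcript levels of 48 genes for lysosomal hydrolases, lysosomal membrane proteins and the lysosomal proton pump were measured by bulk RNA sequencing in Cx3cr1+ macrophages from mouse lung. The genes were chosen by name, with earlier results of these data known. They were 29 hydrolases and soluble partner proteins, 8 membrane proteins and 11 subunits or accessory proteins of the V-ATPase, with cathepsins left out. All 48 were matched to 1 gene each among the 52636 genes of the count table, and all 48 passed the filter on low counts. The libraries fall into 3 groups of 4: bleomycin-treated lungs labelled IL4Ra KO (bleomycin KO), bleomycin-treated lungs labelled IL4Ra WT (bleomycin WT), and saline-treated lungs labelled IL4Ra WT (saline WT). Bleomycin injures the lung and is used to induce fibrosis, and IL4Ra is the receptor chain through which IL-4 and IL-13 signal. The comparison of bleomycin WT with saline WT asks what differs with injury, and that of the 2 bleomycin groups asks what differs with the deletion. No saline group with the deletion was analysed here, so bleomycin KO against saline WT differs in treatment and in genotype. The labels give no age, strain, dose or day, and they do not say what drives the deletion or whether animals were pooled. Nothing in them tells whether the 4 libraries within a group are different animals, and the p-values reflect only how far these libraries scatter, part of which may be technical.

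Lysosomes are acidic organelles in which macrophages break down engulfed material. Soluble hydrolases cut glycans, lipids, proteins and nucleic acids there. Membrane proteins line the organelle and move its contents, and the V-ATPase pumps protons inward, with a V1 part that hydrolyses ATP and a V0 part that passes protons through the membrane. Many lysosomal genes are known to be controlled by the transcription factors Tfeb and Tfe3 and their relatives Mitf and Tfec, which bind E-boxes with the core CACGTG, also within the longer sequence known as the CLEAR element.

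Of the 48 members, 42 were matched to promoters of RefSeq (GRCm38.p6, from 250 bases before to 50 bases after the gene's start). Of these 42 members, 12 held CACGTG (28.6%), against 2187 of all 27025 genes with such promoters (8.09%). The longer TCACGTGA was present in 5 members (11.9%), against 1.12% of those genes. A gene was counted if any of its promoter windows held the motif. Both motifs read the same on both strands, and the longer contains the shorter. Stretches of 150 bases directly before the RefSeq start are shown for 6 members on which the results below turn or which differ in the motif, 5′ to 3′ on the gene's own strand, with CACGTG in capitals. The promoters are those of Lamp1 (chr8:13159011-13159160, plus strand), Lgmn (chr12:102439093-102439242, minus strand), Naglu (chr11:101069944-101070093, plus strand), Atp6v1a (chr16:44139260-44139409, minus strand), Cln3 (chr7:126583237-126583386, minus strand) and Tpp1 (chr7:105752236-105752385, minus strand).

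Lamp1: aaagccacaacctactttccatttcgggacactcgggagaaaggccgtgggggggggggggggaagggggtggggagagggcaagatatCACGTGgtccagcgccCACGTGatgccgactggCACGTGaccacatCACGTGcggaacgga

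Lgmn: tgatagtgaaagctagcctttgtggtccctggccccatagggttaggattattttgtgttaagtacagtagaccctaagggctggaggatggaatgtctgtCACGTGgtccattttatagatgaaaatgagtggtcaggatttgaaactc

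Naglu: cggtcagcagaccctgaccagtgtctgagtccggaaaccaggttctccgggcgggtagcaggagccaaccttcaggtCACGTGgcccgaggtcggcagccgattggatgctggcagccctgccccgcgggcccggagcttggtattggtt

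Atp6v1a: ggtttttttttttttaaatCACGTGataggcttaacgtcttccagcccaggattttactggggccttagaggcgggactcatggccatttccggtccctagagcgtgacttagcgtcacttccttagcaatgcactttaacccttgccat

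Cln3: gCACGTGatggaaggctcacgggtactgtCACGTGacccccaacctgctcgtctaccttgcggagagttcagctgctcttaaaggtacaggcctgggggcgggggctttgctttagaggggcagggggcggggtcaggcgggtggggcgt

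Tpp1: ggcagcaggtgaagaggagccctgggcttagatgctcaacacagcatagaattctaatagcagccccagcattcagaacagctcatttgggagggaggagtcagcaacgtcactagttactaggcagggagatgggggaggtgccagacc

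Lamp1 held 4 copies of CACGTG, beginning 61, 45, 28 and 15 bases before its start. Cln3 held 2 copies in the stretch shown, and the copy nearer the start in Cln3 and the single copy in Atp6v1a lie within TCACGTGA. Lgmn and Naglu held 1 copy each. Tpp1 held none. Lgmn and Cln3 have 2 windows each in the promoter table. The one with the most copies is shown, and the other held no copy. The stretches shown for Lgmn, Cln3 and Atp6v1a lie inside the annotated genes, not before their outermost starts. On the minus strand these genes begin at 102439813 (Lgmn), 126585817 (Cln3) and 44139705 (Atp6v1a). Naglu begins at 101070012 on the plus strand, so part of its stretch, with the CACGTG, also lies inside the annotated gene. The other members with CACGTG were Gla, Glb1, Arsa, Gaa, Sgsh, Mcoln1 and Atp6v0d1. A match is a description of the letters and not a shown binding site.

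Libraries held 8514384 to 16842991 counts in bleomycin KO and 9600870 to 18051113 in bleomycin WT. Saline WT libraries held 3534193, 6398289 and 10168525 counts, and saline WT 2 only 60598. In saline WT 2, 3 counts correspond to 32.4 CPM (TMM-scaled counts at an equal library size), so low levels there were not detectable, and 14 of the 48 members had 0 counts; in each of the other libraries 3 counts are at most 0.73 CPM. Bleomycin WT 4 also stood apart, with a TMM factor of 0.579 against 0.898 to 1.54 in the others. Each comparison is therefore given with all 12 libraries and again with 10, leaving out saline WT 2 and bleomycin WT 4. Il4ra, the labelled target, was at 473, 277, 235 and 343 CPM in the libraries labelled KO, against 351, 626, 302 and 138 CPM in bleomycin WT and 111, 32.4, 262 and 302 CPM in saline WT. Its level in the libraries labelled KO lay within the bleomycin WT range. The count covers the whole gene and the labels do not say which part was deleted, so it does not check those labels beyond a loss of the whole transcript.

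The summed level of the 6 macrophage markers (Cx3cr1, Csf1r, Adgre1, Mertk, Fcgr1, Lyz2) was 37019 to 57927 CPM in the libraries labelled bleomycin KO, 37558 to 41330 in bleomycin WT 1 to 3, 15537 in bleomycin WT 4, and 11361 to 30552 in saline WT. The sum of 6 neutrophil markers was 1013 to 1676 CPM in the libraries labelled KO and 307 to 1412 in bleomycin WT, against 2486 to 26973 in saline WT. The sum of 6 lung epithelial markers was 326 to 767 CPM in the libraries labelled KO and 350 to 916 in bleomycin WT, against 1697 to 2528 in saline WT. Thus macrophage markers summed higher, and neutrophil and epithelial markers lower, in every library of bleomycin KO than in any of saline WT. The macrophage markers did not all lie on 1 side: with 10 libraries the log2 fold change of Cx3cr1, by which the cells are labelled, was -0.58 for KO and -0.999 for bleomycin WT against saline WT, and that of Csf1r -0.22 for KO and -0.065 for bleomycin WT, while the other 4 were above 0. The sum of 6 T and NK cell markers was 286 to 473 CPM in the libraries labelled KO and 262 to 454 in bleomycin WT, against 21.6 to 234 in saline WT, with no overlap. The sum of 5 fibroblast markers was 92.3 to 474 CPM in the libraries labelled KO and 196 to 311 in bleomycin WT, against 43.3 to 141 in saline WT. The sum of 8 alveolar macrophage markers was 1004 to 1685 CPM in the libraries labelled KO and 548 to 2293 in bleomycin WT, against 1459 to 4160 in saline WT. Classical and non-classical monocyte, endothelial and B cell sums also overlapped between groups. No marker of these lists was at 0 in every bleomycin WT library, and none was called with 12 libraries. With 10 libraries, 3 of 6 neutrophil markers passed the test for KO and 1 of 6 for bleomycin WT against saline WT, as did 1 of 6 macrophage markers in each (Fcgr1, higher). In both comparisons the T cell marker Il7r rose, and the alveolar macrophage marker Ear1, the classical monocyte marker Plac8 and the non-classical monocyte marker Treml4 fell. Other markers of these lists went the other way without passing the test. The log2 fold change of the classical monocyte marker Ccr2 was 1.04 for KO and 0.82 for bleomycin WT. That of the alveolar macrophage marker Fabp4 was 0.28 for KO and 0.088 for bleomycin WT. Krt79 of the alveolar macrophage list and the epithelial marker Sftpc fell for KO against saline WT. In bulk RNA, more cells of a type and more RNA per cell cannot be told apart, and the part of these markers in the results below was not tested.

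The summed level of all 3 classes was higher in both bleomycin groups than in saline WT. The 29 hydrolases and partners summed to 19116 ± 2756 CPM in the libraries labelled bleomycin KO and 20288 ± 9325 CPM in bleomycin WT, against 8866 ± 2795 CPM in saline WT (SD, n = 4 each). The 8 membrane proteins summed to 6456 ± 318 CPM in libraries labelled KO and 8056 ± 1948 CPM in bleomycin WT, against 3840 ± 1817 CPM in saline WT. The 11 V-ATPase genes summed to 3142 ± 74.8 CPM in libraries labelled KO and 3546 ± 831 CPM in bleomycin WT, against 1849 ± 804 CPM in saline WT. In each class, every library of both bleomycin groups lay above every saline WT library. For the hydrolase class this order rested on Gm2a in bleomycin WT 4. There Gm2a gave 7095 of the 13934 CPM, against 324 to 1339 CPM of Gm2a in saline WT. Without Gm2a, the hydrolase sum of bleomycin WT 4 would lie below those of saline WT 1, 3 and 4. Psap alone made up 24.1% to 32.5% of the members' sum in the libraries labelled KO, 21.9% to 38.3% in bleomycin WT 1 to 3, 3.28% in bleomycin WT 4 and 12.9% to 20.6% in saline WT. Without Psap, the hydrolase class summed to 11339 ± 897 CPM in libraries labelled KO and 12736 ± 2933 CPM in bleomycin WT, against 6121 ± 1506 CPM in saline WT (SD, n = 4 each).

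**Figure D1:**
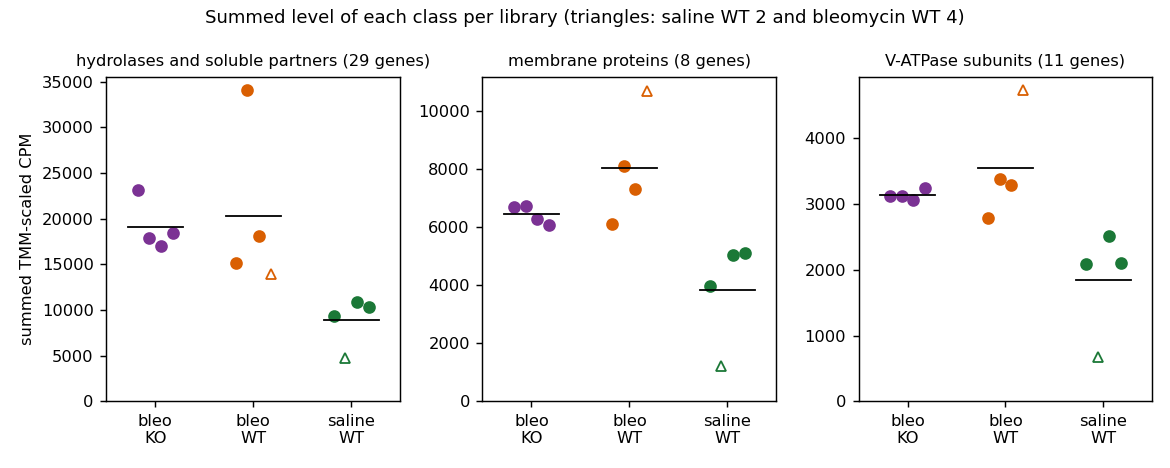
Summed TMM-scaled CPM of the 3 classes (vertical axes, linear) in each library, by group; each point is 1 library, lines are group means, and open triangles are saline WT 2 and bleomycin WT 4. In each class all 8 bleomycin libraries lie above the 4 saline WT libraries, and the hydrolase sum of bleomycin WT 2 (34026 CPM) is the highest of its class. In bleomycin WT 4, Gm2a alone gives 7095 of the 13934 CPM of the hydrolase sum.

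Per kb of exon, which allows genes to be compared, the members differed widely in mean level over the 12 libraries. Psap, the precursor of the saposins that help hydrolases act on sphingolipids, was highest at 2196 CPM per kb. It was followed by Cd68, a heavily glycosylated macrophage membrane protein, at 1367 CPM per kb. Laptm5, a lysosomal membrane protein of blood cells, stood at 662, the protease Lgmn (legumain) at 605, progranulin (Grn) at 566, Lamp1 at 489 and Hexa at 436 CPM per kb. Among the pump genes the accessory subunit Atp6ap1 was highest at 227 CPM per kb, followed by Atp6v1b2 at 198. The lowest members were Sgsh, a heparan sulfatase, at 3.5 CPM per kb and Atp6v0c, the proteolipid of the V0 ring, at 2.49 CPM per kb. Atp6v0c has a near-identical pseudogene (Atp6v0c-ps1) in the gene table, and the sources used here do not state the treatment of reads that fit both, so its level is uncertain.

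With 12 libraries, no member was called in either comparison with saline WT by edgeR at an adjusted p under 0.05. For bleomycin KO against saline WT, 3 of all 16679 genes were called (0.018%), and for bleomycin WT against saline WT 4 genes (0.024%). At an unadjusted p under 0.05, 7 members were higher and 0 lower in libraries labelled bleomycin KO than in saline WT, where 2.96% of all genes were higher and 6.07% lower. In bleomycin WT, 11 members were higher and 0 lower than in saline WT at that p, where 8.47% of all genes were higher and 6.19% lower. For KO against saline WT, DESeq2 called 1 member higher (0.574% of all genes) and limma-voom with quality weights 2 (0.522%). For bleomycin WT against saline WT, DESeq2 called 3 members higher (1.19% of all genes) and limma-voom 2 (0.899%). No member was called lower by either tool, where DESeq2 called 1.84% of all genes lower for KO and 2.28% for bleomycin WT, and limma-voom 0.869% for KO and 1.01% for bleomycin WT. Lamp1 was among the members called by both tools in both comparisons.

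Most members lay on the higher side in bleomycin. With 12 libraries the fitted log2 fold change was above 0 for 43 of 48 members (89.6%) in libraries labelled KO against saline WT, beside 51.7% of all genes tested. It was above 0 for 42 of 48 (87.5%) in bleomycin WT against saline WT, beside 52.9% of all genes. The median log2 fold change of the members was 0.63 for KO against saline WT (all genes 0.04) and 0.68 for bleomycin WT against saline WT (all genes 0.08). By class, the medians for KO against saline WT were 0.70 for hydrolases and partners, 0.50 for membrane proteins and 0.62 for V-ATPase genes. For bleomycin WT against saline WT they were 0.62 for hydrolases and partners, 0.56 for membrane proteins and 0.83 for V-ATPase genes. With 10 libraries the class medians for KO against saline WT were 0.48 for hydrolases and partners, 0.24 for membrane proteins and 0.40 for V-ATPase genes. For bleomycin WT against saline WT they were then 0.62 for hydrolases and partners, 0.19 for membrane proteins and 0.35 for V-ATPase genes, so the V-ATPase median was the highest of the 3 with 12 libraries and not with 10. All 4 libraries labelled KO lay above all 4 saline WT libraries for 21 of 48 members and below for 0, where 8.17% of all genes lay above and 1.04% below. The 21 were 13 hydrolases or partners, 4 membrane proteins and 4 V-ATPase genes. All 4 bleomycin WT libraries lay above saline WT for 8 members and below for 0, where 4.93% of all genes lay above and 0.929% below; these were Hexa, Manba, Fuca1, Lgmn, Lamp1, Cd68, Atp6v1a and Atp6v1c1.

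With 10 libraries, 3 members rose in libraries labelled KO against saline WT (Lamp1, Tpp1 and Atp6v1c1), where 71 of 18812 genes rose (0.377%), and 2 members rose in bleomycin WT against saline WT (Lamp1 and Tpp1), where 54 genes rose (0.287%). No member fell past the adjusted threshold in either comparison, where 0.266% of all genes fell for KO and 0.144% for bleomycin WT. At an unadjusted p under 0.05, 19 members were higher and 0 lower for KO, where 1194 of 18812 genes were higher and 1967 lower. For bleomycin WT, 17 members were higher and 2 lower (Laptm4a and Ppt1) at that p, where 1221 genes were higher and 1422 lower. Leaving out these libraries shifted the median of all genes to -0.15 in KO against saline WT and to -0.14 in bleomycin WT against saline WT. The members' medians were then 0.38 for KO against saline WT and 0.49 for bleomycin WT against saline WT, and 43 of 48 members were above 0 in each, beside 43.9% of all genes for KO and 44.1% for bleomycin WT. All libraries labelled KO lay above the 3 saline WT libraries for 22 members, where 8.38% of all genes did so, and bleomycin WT 1 to 3 lay above them for 21 members, where 11.2% of all genes did so. In both comparisons 1 member, Laptm4a, lay entirely below saline WT, where 7.8% of all genes did so for KO and 9.43% for bleomycin WT. The 2 comparisons share the saline WT libraries.

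**Figure D2:**
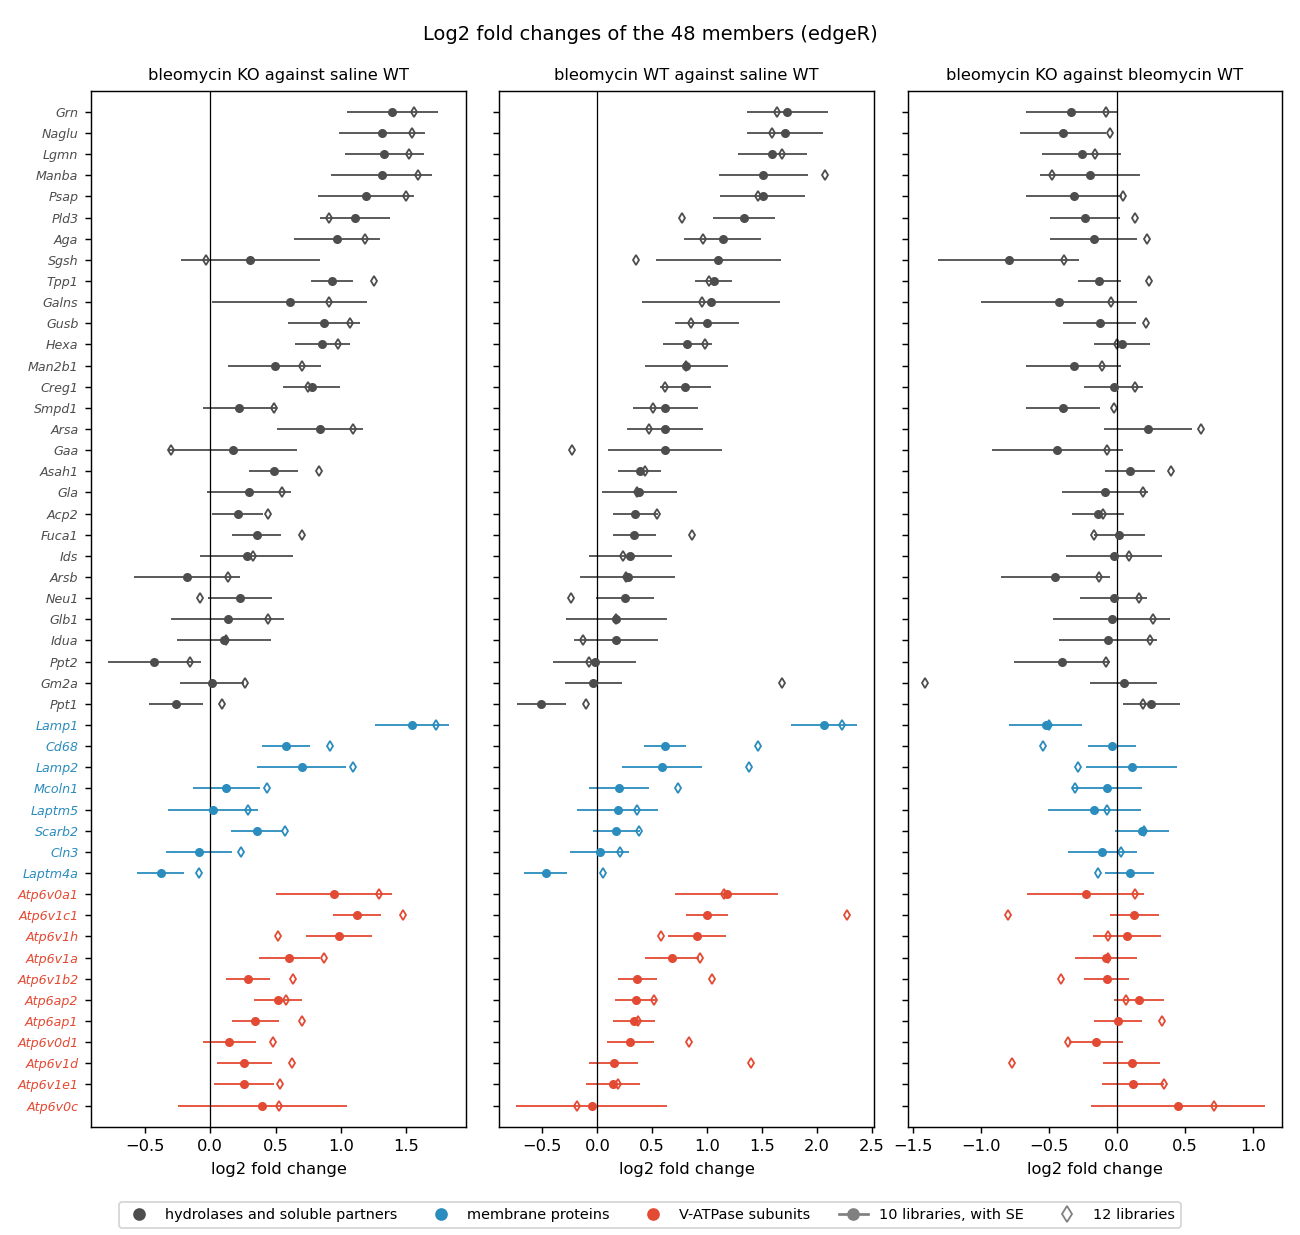
Log2 fold changes of the 48 members for bleomycin KO against saline WT (left), bleomycin WT against saline WT (middle) and bleomycin KO against bleomycin WT (right); filled points with bars are the fit of 10 libraries with its standard error, open diamonds the fit of 12, and colours the 3 classes. Against saline WT, 43 of 48 filled points lie above 0 in each comparison, while between the bleomycin groups 16 of 48 do.

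Among the membrane proteins, Lamp1, a glycoprotein that coats the inner face of the lysosomal membrane (ENSMUSG00000031447, chr8:13159161-13175338, GRCm38), separated the groups most clearly. It was at 1426, 1474, 1086 and 841 CPM in libraries labelled bleomycin KO 1 to 4, at 1629.8, 1539.8, 2050.2 and 1585.5 CPM in bleomycin WT 1 to 4, and at 543, 227, 404 and 275 CPM in saline WT 1 to 4. The lowest bleomycin library was thus above the highest saline WT library. With 12 libraries the log2 fold change was 1.73 (SE 0.38; edgeR adjusted p = 0.207) for KO against saline WT and 2.22 (SE 0.39; edgeR adjusted p = 0.0853) for bleomycin WT against saline WT. With 10 libraries it was 1.54 (SE 0.28; edgeR adjusted p = 0.0461) for KO and 2.06 (SE 0.30; edgeR adjusted p = 0.0217) for bleomycin WT. Leaving out bleomycin WT 4 alone was enough for the call in bleomycin WT (log2 fold change 2.35, edgeR adjusted p = 0.0428).

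Lamp2, the related glycoprotein that also takes part in chaperone-mediated autophagy, was at 858, 1009, 1135 and 787 CPM in libraries labelled KO, at 852, 766, 1030.0 and 1960.1 CPM in bleomycin WT, and at 238, 0, 773 and 738 CPM in saline WT. Libraries labelled KO lay above saline WT, while bleomycin WT 2 was just below saline WT 3. Cd68 was at 1489, 1866, 1794 and 1765 CPM in libraries labelled KO, at 1516, 1707, 2129 and 4718 CPM in bleomycin WT, and at 1317, 205, 1089 and 1023 CPM in saline WT, with no overlap between either bleomycin group and saline WT. Its log2 fold change did not pass the test, at 0.58 (SE 0.18; edgeR adjusted p = 0.162) for KO and 0.61 (SE 0.19; edgeR adjusted p = 0.2) for bleomycin WT against saline WT with 10 libraries. With all 12, including bleomycin WT 4 and saline WT 2, it was larger, at 0.92 (SE 0.50; edgeR adjusted p = 0.627) for KO and 1.46 (SE 0.50; edgeR adjusted p = 0.241) for bleomycin WT.

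Scarb2, described with the comparison of the bleomycin groups below, lay above saline WT in every library labelled KO. Laptm5 and Mcoln1 overlapped between groups. Laptm5 was at 2214, 1613, 1491 and 1875 CPM in libraries labelled KO, at 1420.4, 3343, 1333 and 1478 CPM in bleomycin WT, and at 1070.1, 595, 1882 and 2336 CPM in saline WT. Mcoln1, the calcium channel TRPML1, was at 84.4, 67.1, 60.9 and 72.8 CPM in libraries labelled KO, at 62.0, 105, 59.0 and 126 CPM in bleomycin WT, and at 53.3, 0, 74.6 and 66.3 CPM in saline WT. In both genes saline WT 3 and 4 lay within the bleomycin range. Laptm4a, a membrane protein of lysosomes and endosomes, was at 312, 362, 392 and 384 CPM in libraries labelled KO, at 339.9, 279, 407 and 567 CPM in bleomycin WT, and at 448, 119, 500.4 and 449.7 CPM in saline WT, so that only saline WT 2 and bleomycin WT 4 broke the order of lower levels in bleomycin. Its log2 fold change with 10 libraries was -0.38 (SE 0.18; edgeR adjusted p = 0.321) for KO and -0.47 (SE 0.19; edgeR adjusted p = 0.319) for bleomycin WT against saline WT. With 12 libraries it was -0.083 for KO and turned to 0.052 for bleomycin WT.

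Among the hydrolases, Tpp1, a peptidase that trims tripeptides from protein ends (chr7:105744811-105752235), was nearly constant in libraries labelled KO, at 444, 467, 447 and 469 CPM. It was at 431, 572, 507 and 42.6 CPM in bleomycin WT, and at 208, 32.4, 247 and 259 CPM in saline WT. Bleomycin WT 4 was the only bleomycin library within the saline WT range. With 10 libraries the log2 fold change was 0.93 (SE 0.16; edgeR adjusted p = 0.0406) for KO and 1.06 (SE 0.17; edgeR adjusted p = 0.0329) for bleomycin WT against saline WT. With 12 libraries it was 1.25 (SE 0.65; edgeR adjusted p = 0.608) for KO and 1.02 (SE 0.65; edgeR adjusted p = 0.475) for bleomycin WT.

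Lgmn, an asparaginyl protease that also processes other lysosomal enzymes (chr12:102394084-102439813), was at 1499, 1765, 1201 and 1476 CPM in libraries labelled KO, at 1244, 1883, 2244 and 1272 CPM in bleomycin WT, and at 844, 324, 402 and 492 CPM in saline WT. The groups did not overlap, also with bleomycin WT 4 and saline WT 2 in place. Its log2 fold change with 12 libraries was 1.52 (SE 0.39; edgeR adjusted p = 0.208) for KO and 1.68 (SE 0.39; edgeR adjusted p = 0.174) for bleomycin WT against saline WT, and it passed the test with limma-voom in both (adjusted p = 0.0353 for KO and 0.0179 for bleomycin WT).

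Of the glycan-cutting enzymes, Manba (beta-mannosidase) was at 179, 130.01, 114 and 125 CPM in libraries labelled KO, at 139, 202, 133 and 289 CPM in bleomycin WT, and at 21.4, 0, 63.0 and 80.1 CPM in saline WT. Hexa, the alpha subunit of the beta-hexosaminidase that degrades the ganglioside GM2, was at 1087, 1081, 1087 and 917 CPM in libraries labelled KO, at 821, 1421, 835 and 1096 CPM in bleomycin WT, and at 604, 400.0, 526 and 579 CPM in saline WT. Both genes lay above saline WT in all 8 bleomycin libraries, and neither passed the test with edgeR in either comparison. With 12 libraries the log2 fold change of Manba was 2.07 (SE 0.64; edgeR adjusted p = 0.222) and that of Hexa 0.98 (SE 0.35; edgeR adjusted p = 0.248) for bleomycin WT against saline WT; with DESeq2 Manba passed (adjusted p = 0.0251). Naglu, which cuts heparan sulfate, was at 179, 127, 114 and 116 CPM in libraries labelled KO, at 126, 269, 137 and 21.5 CPM in bleomycin WT, and at 46.2, 10.8, 40.1 and 73.6 CPM in saline WT. By substrate, the median log2 fold changes for KO against saline WT with 10 libraries were 0.39 for the 6 sphingolipid enzymes, 0.42 for the 6 glycogen and glycoprotein enzymes and 0.31 for the 7 glycosaminoglycan enzymes. For bleomycin WT against saline WT they were 0.50 for sphingolipid, 0.71 for glycogen and glycoprotein and 0.997 for glycosaminoglycan enzymes. With 12 libraries the medians for KO against saline WT were 0.69 for sphingolipid, 0.70 for glycogen and glycoprotein and 0.33 for glycosaminoglycan enzymes. For bleomycin WT against saline WT they were 0.45 for sphingolipid, 0.84 for glycogen and glycoprotein and 0.36 for glycosaminoglycan enzymes, so glycosaminoglycan enzymes had the highest median of the 3 with 10 libraries and the lowest with 12.

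The exceptions were few. Ppt1, a thioesterase that removes fatty acids from proteins, was at 362, 417, 434 and 434 CPM in libraries labelled KO, at 353, 319, 372 and 394 CPM in bleomycin WT, and at 339, 54.0, 646 and 486 CPM in saline WT. Bleomycin libraries thus lay between saline WT 1 and saline WT 4 in all but 1 case, bleomycin WT 2, which was below saline WT 1. With 10 libraries the members with a log2 fold change below 0 against saline WT were Arsb, Ppt1, Ppt2, Cln3 and Laptm4a for libraries labelled KO and Ppt1, Ppt2, Gm2a, Laptm4a and Atp6v0c for bleomycin WT.

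Among the soluble partners, Psap (chr10:60277627-60302597) was at 10716, 6667, 6786 and 6941 CPM in libraries labelled KO, at 5532, 17435, 6276 and 965 CPM in bleomycin WT, and at 2883, 865, 3602 and 3631 CPM in saline WT. All bleomycin libraries but bleomycin WT 4 were above saline WT. Grn, the precursor of granulins, which is cut up in the lysosome, was at 2069, 1585, 1208 and 1773 CPM in libraries labelled KO, at 1142, 3478, 1709.8 and 680.1 CPM in bleomycin WT, and at 480.3, 368, 638 and 759.9 CPM in saline WT. Bleomycin WT 4 was again the only bleomycin library within the saline WT range. Neither gene passed the test with edgeR: with 10 libraries, the log2 fold change of Psap was 1.19 (SE 0.37; edgeR adjusted p = 0.161) for KO and 1.503 (SE 0.39; edgeR adjusted p = 0.133) for bleomycin WT, and that of Grn was 1.39 (SE 0.35; edgeR adjusted p = 0.102) for KO and 1.73 (SE 0.37; edgeR adjusted p = 0.0751) for bleomycin WT. Without a filter on low counts Psap passed in both (edgeR adjusted p = 0.0403 for KO and 0.0447 for bleomycin WT). Gm2a, the activator that presents GM2 to the hexosaminidase, was at 953, 893, 961 and 859 CPM in libraries labelled KO, at 929, 916, 823 and 7095 CPM in bleomycin WT, and at 547, 324, 1339 and 821 CPM in saline WT. Only bleomycin WT 4 stood apart for this gene, where Gm2a made up 24.2% of the members' sum, against 2.01% to 7.23% in the other 11 libraries.

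Among the pump genes, Atp6v1c1, the C subunit that joins the V1 and V0 parts, was at 287, 363, 299 and 309.9 CPM in libraries labelled KO, at 270.1, 268, 331 and 1318 CPM in bleomycin WT, and at 125, 0, 166 and 139 CPM in saline WT. Every bleomycin library was above every saline WT library. With 10 libraries the log2 fold change was 1.12 (SE 0.18; edgeR adjusted p = 0.0325) for KO and 0.99 (SE 0.19; edgeR adjusted p = 0.0564) for bleomycin WT against saline WT. With 12 libraries it was 1.48 (SE 0.71; edgeR adjusted p = 0.56) for KO and 2.27 (SE 0.73; edgeR adjusted p = 0.227) for bleomycin WT.

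The catalytic A subunit, Atp6v1a, was at 349, 338, 304 and 306 CPM in libraries labelled KO, at 278, 335, 419 and 323 CPM in bleomycin WT, and at 241, 64.9, 248 and 142 CPM in saline WT, again without overlap. The B subunit, Atp6v1b2, which shares the ATP-binding sites with it, was at 579, 544, 559 and 581 CPM in libraries labelled KO, at 525, 658, 615 and 1213 CPM in bleomycin WT, and at 400.1, 64.9, 563 and 412 CPM in saline WT. Saline WT 3 overlapped both bleomycin groups. Atp6v1d, a subunit of the central rotor, was at 166, 227, 205 and 196 CPM in libraries labelled KO, at 216, 142, 197 and 799 CPM in bleomycin WT, and at 172, 0, 175 and 145 CPM in saline WT. The accessory subunit Atp6ap1 was at 649.5, 608, 633 and 667 CPM in libraries labelled KO, at 509, 763, 649.5 and 113 CPM in bleomycin WT, and at 401, 54.0, 557 and 541 CPM in saline WT. Apart from Atp6v1c1, no V-ATPase gene passed the test by edgeR in either comparison, with 12 or with 10 libraries. With 10 libraries the other 10 pump genes had log2 fold changes of 0.15 to 0.98 for KO against saline WT.

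**Figure D3:**
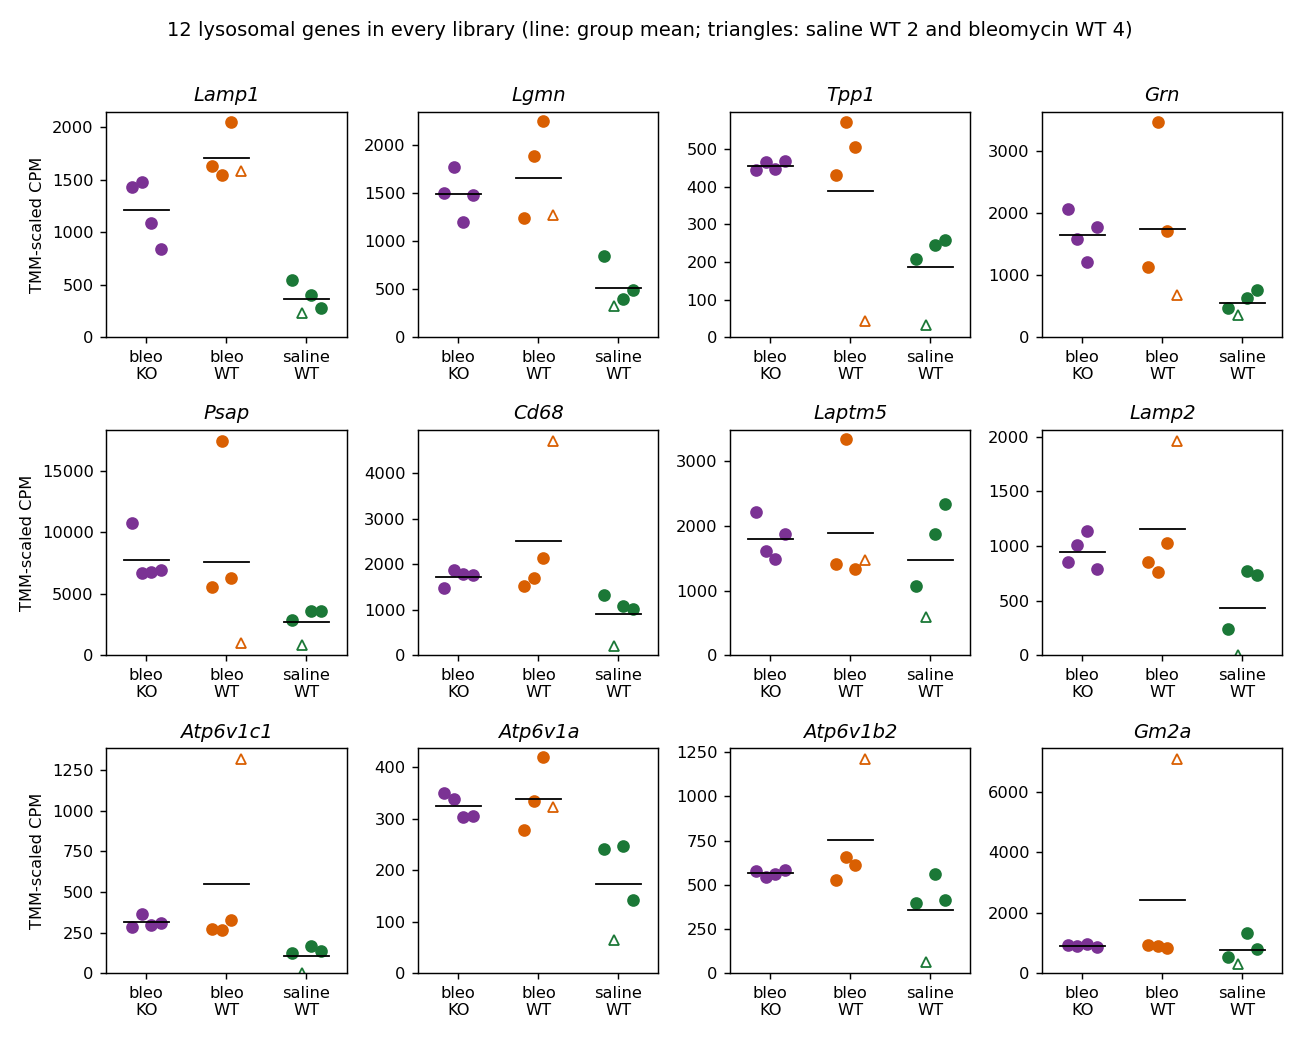
TMM-scaled CPM (vertical axes, linear, from 0) of 12 members in each library, by group; each point is 1 library, lines are group means, and open triangles are saline WT 2 and bleomycin WT 4. For Lamp1, Lgmn, Cd68, Atp6v1a and Atp6v1c1 all bleomycin libraries lie above saline WT, whereas for Gm2a only bleomycin WT 4 stands apart.

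Between the bleomycin groups no member was called. With 12 libraries edgeR called 0 of all 16679 genes (0%) and 0 members at an adjusted p under 0.05, and DESeq2 and limma-voom also called 0 members. At an unadjusted p under 0.05, 0 members were higher and 1 was lower in the libraries labelled KO than in bleomycin WT, where 0.186% of all genes were higher and 3.69% lower. That member was Gm2a, whose log2 fold change was -1.41 (SE 0.65; edgeR adjusted p = 0.9998), which was 0.052 (SE 0.25) with 10 libraries, that is, without bleomycin WT 4. With 10 libraries 0 members and 0 of 18812 genes were called, and 0 members had an unadjusted p under 0.05. The median of the members was -0.04 with 12 libraries (all genes -0.01) and -0.07 with 10 (all genes -0.02). It was above 0 for 21 of 48 members (43.8%; all genes 49.3%) with 12 libraries and for 16 of 48 (33.3%; all genes 47.6%) with 10.

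Lamp1 and Scarb2 were the 2 members for which the libraries of the bleomycin groups did not overlap with all 12 libraries. Lamp1 lay below, with 841 to 1474 CPM in libraries labelled KO against 1539.8 to 2050.2 CPM in bleomycin WT, and its log2 fold change was -0.50 (SE 0.37; edgeR adjusted p = 0.9998). Scarb2, the receptor that brings beta-glucocerebrosidase to the lysosome, lay above, at 249, 267, 258 and 286 CPM in libraries labelled KO against 216, 247, 241 and 222 CPM in bleomycin WT. Its log2 fold change was 0.20 (SE 0.41; edgeR adjusted p = 0.9998). Among all genes, 0.905% lay above and 0.594% below in this way. With 10 libraries Scarb2 again lay above and Lamp1 and Smpd1 below, where 1.37% of all genes lay above and 1.81% below. Smpd1, the acid sphingomyelinase, was at 31.6 to 44.0 CPM in libraries labelled KO, against 44.8 to 53.1 CPM in bleomycin WT 1 to 3. The level of Il4ra does not separate these groups either, so directions here rest on the labels. These values do not show that the groups are alike, since the standard errors of the members' log2 fold changes between the bleomycin groups reached 1.004 with 12 libraries.

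In bleomycin WT 4, bleomycin WT 2 and bleomycin KO 1, the members' levels differed from other libraries of the group together with base composition. No other library was examined in this way. In bleomycin WT 4 the V-ATPase genes Atp6v1c1 and Atp6v1d and the membrane proteins Cd68 and Lamp2 were above bleomycin WT 1 to 3, while Psap, Tpp1, Pld3 and Naglu were below. The V-ATPase genes Atp6v1e1 and Atp6ap1 were below as well. Single genes also went against the trend with base composition. Tpp1, with 46.8% G and C, was below, and Cd68, with 52.9%, was above (members' median 51.7%). Across the 48 members, the log2 ratio of bleomycin WT 4 to WT 1 to 3 had a Spearman correlation of -0.524 with the share of G and C bases in the longest coding transcript, against -0.148 across 13411 genes. For bleomycin WT 2 over WT 1 and 3 the correlation was 0.673 across the members and 0.283 across those genes. For bleomycin KO 1 over KO 2 to 4 it was 0.516 across the members and 0.159 across those genes. For the ratio of groups it was 0.000109 (KO over saline WT 1, 3 and 4) and 0.183 (bleomycin WT 1 to 3 over saline WT 1, 3 and 4) across the members. Across those genes it was -0.0345 for KO and 0.035 for bleomycin WT. The members had 38.6% to 59.8% G and C. These correlations are across genes of the same libraries, which are not independent, and the part of base composition in the results was not tested.

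**Figure D4:**
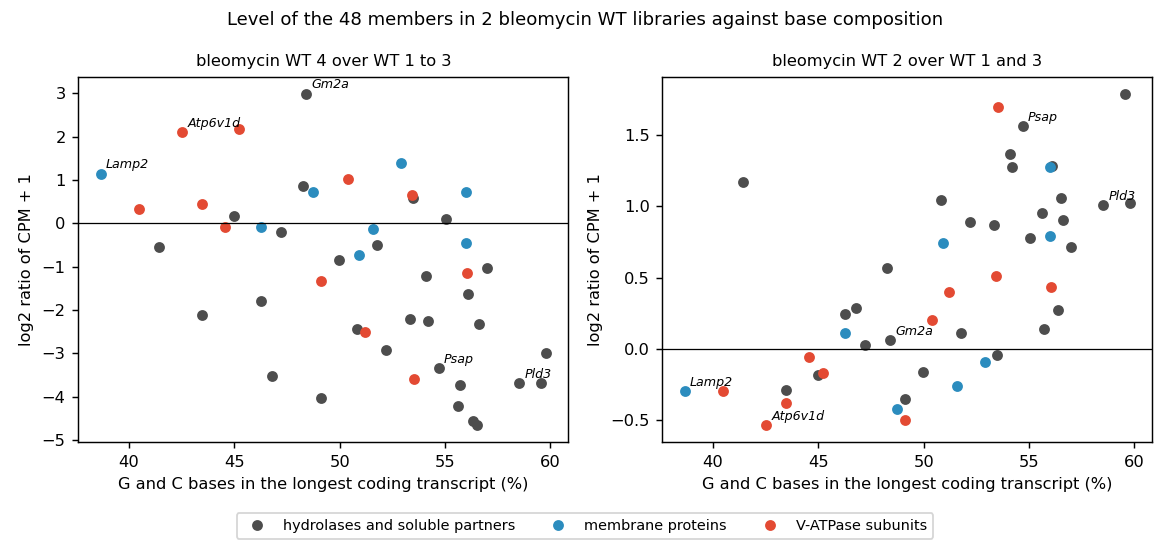
Log2 ratio of CPM + 1 (vertical axes) of each of the 48 members in bleomycin WT 4 over the mean of WT 1 to 3 (left) and in bleomycin WT 2 over the mean of WT 1 and 3 (right), against the share of G and C bases in the longest coding transcript (horizontal axes, %); colours are the 3 classes. The points run downward on the left (Spearman correlation -0.524) and upward on the right (0.673).

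The members with and without CACGTG in the promoter were set side by side. With 12 libraries the median log2 fold change of the 12 members with the motif was 0.52 for KO and 0.61 for bleomycin WT against saline WT, and that of the 30 without it 0.60 for KO and 0.58 for bleomycin WT. With 10 libraries the medians with the motif were 0.30 for KO and 0.61 for bleomycin WT against saline WT, and those without it 0.36 for KO and 0.34 for bleomycin WT. Lamp1, with 4 copies, and Tpp1, with none in its window, were the 2 members that rose in both comparisons with 10 libraries. Atp6v1c1 was not among the matched promoters.

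Further genes of the lysosome were read from the same fits. Of 45 such genes (further V-ATPase subunits, hydrolases, membrane proteins, delivery receptors and the MiT/TFE factors), 40 were tested with 12 libraries and 0 were called by edgeR in any comparison. At an unadjusted p under 0.05, 5 were higher and 1 lower in libraries labelled KO against saline WT (2.96% and 6.07% of all genes), 12 higher and 1 lower in bleomycin WT against saline WT (8.47% and 6.19%), and 0 higher and 1 lower between the bleomycin groups (0.186% and 3.69%). DESeq2 called 1 higher for KO (0.574% of all genes) and 2 for bleomycin WT against saline WT (1.19%), and limma-voom 3 in each (0.522% for KO and 0.899% for bleomycin WT). With 10 libraries, 41 were tested: 3 rose in libraries labelled KO against saline WT (0.377% of all genes), and 1 rose in bleomycin WT against saline WT (0.287%).

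Acp5, the tartrate-resistant acid phosphatase, was at 376, 406, 465 and 373 CPM in libraries labelled KO, at 377, 434, 447.5 and 491 CPM in bleomycin WT, and at 165, 0, 110.0 and 132 CPM in saline WT. No bleomycin library overlapped saline WT. With 10 libraries it rose by 1.56 on the log2 scale for KO (SE 0.20; edgeR adjusted p = 0.0132) and by 1.60 for bleomycin WT (SE 0.21; edgeR adjusted p = 0.0169). Cd63, a tetraspanin of late endosomes and lysosomes, was at 491 to 663 CPM in libraries labelled KO and 496 to 1502 CPM in bleomycin WT, against 131 to 287 CPM in saline WT. No bleomycin library overlapped saline WT for this gene either. With 10 libraries Cd63 rose by 1.68 on the log2 scale (SE 0.32; edgeR adjusted p = 0.0491) in libraries labelled KO, and its log2 fold change was 1.67 (edgeR adjusted p = 0.0618) for bleomycin WT against saline WT. The delivery receptor Sort1 and the pump subunit Atp6v1c2 had the smallest p of their lists in bleomycin WT against saline WT and did not pass the test. Sort1 was at 20.4 to 101.03 CPM in libraries labelled KO, 67.8 to 108 CPM in bleomycin WT and 0 to 40.4 CPM in saline WT. Atp6v1c2 held 9, 1, 1 and 12 counts in libraries labelled KO and 14, 3, 5 and 0 in bleomycin WT, against 76, 0, 21 and 31 in saline WT.

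None of the 4 MiT/TFE genes passed the test. Tfec was at 61.8, 71.0, 61.7 and 59.2 CPM in libraries labelled KO, at 66.2, 49.2, 67.2 and 218 CPM in bleomycin WT, and at 18.5, 0, 48.5 and 13.6 CPM in saline WT, without overlap between either bleomycin group and saline WT. Mitf was at 44.4, 34.7, 34.04 and 18.9 CPM in libraries labelled KO, at 24.9, 46.7, 35.1 and 573 CPM in bleomycin WT, and at 15.3, 141, 8.3 and 14.5 CPM in saline WT. Saline WT 2, with 13 counts, was the only saline WT library above any bleomycin library. With 10 libraries its log2 fold change was 1.36 (SE 0.40; edgeR adjusted p = 0.146) for KO and 1.46 (SE 0.42; edgeR adjusted p = 0.172) for bleomycin WT against saline WT, and with 12 it was -0.0019 for KO and 2.36 for bleomycin WT. Tfeb was at 42.3 to 71.5 CPM in libraries labelled KO, 24.2 to 91.4 CPM in bleomycin WT and 0 to 108 CPM in saline WT, and the ranges overlapped. Tfe3 was at 81.9 to 137 CPM in libraries labelled KO, 10.5 to 187 CPM in bleomycin WT and 0 to 132 CPM in saline WT, also with overlap.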

How the data were processed

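The deposited table holds raw counts per Ensembl gene, made by the authors, and a second deposited table lists each gene's symbol, exons and exonic length. Per the labels' protocols, full-length cDNA was amplified with the SMART-Seq v4 kit from small inputs, tagmented with Nextera XT and read single-end. The kit does not mark strand, which leaves overlapping and antisense genes unresolved. The submitters' processing notes name GSNAP, limma and Partek and the builds GRCm38 and mm10, without versions or roles. The design text of the series concerns a different experiment and was left aside.

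Columns were matched to samples by the code in the labels. Levels are CPM, scaled by TMM; level per kb divides by the deposited exonic size. The test was that of edgeR 4.0.16 in R 4.3.3 on the 16679 genes that filterByExpr kept by group, with TMM factors and a robust quasi-likelihood fit of 12 libraries with group as the only term, Benjamini-Hochberg adjustment over all genes kept, threshold 0.05. The SE of a log2 fold change is its size over the root of its F statistic. No pair of libraries within a group agreed within sampling noise (lowest chi-square per degree of freedom 23.9). Floors of 3 counts cover counting error alone, because PCR copies of a molecule are not independent. Alternatives were DESeq2 size factors in edgeR, no filter, DESeq2 1.42.0, limma-voom 3.58.1 with quality weights, a replicate block, each replicate left out, and 10 libraries without saline WT 2 and bleomycin WT 4 (18812 genes kept). The fit was also run on counts simulated from its own estimates of spread, which cannot show how it handles libraries that depart from that model.

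The members, the lists and these alternatives, with the libraries left out, were chosen with earlier results of these data known. Per-library values are given by rule for members past the threshold, the 4 members of each class with the smallest p in bleomycin WT against saline WT, the 2 with the smallest p between bleomycin groups, the 2 of each class most abundant per kb, and of each other lysosomal list those past the threshold and the 1 with the smallest p. Naglu, Ppt1, Laptm4a, Scarb2, Smpd1, Mitf, Tfeb and Tfe3, and Tpp1, called with 10 libraries only, were chosen after their values were seen. Some genes of these lists are not reported here by name. Gene coordinates are those of GENCODE vM21 (GRCm38), and promoters are from RefSeq. Atp6v1c1 has deposited exons outside its vM21 gene, so no position is given. G and C shares are of the longest coding transcript of vM21.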

Additional observations from a re-analysis of the deposited data

Results flagged for a closer look

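Of 63 checks (16 members named by rule and 5 sums, in 3 groups of 4 libraries), 6 had a highest or lowest library whose gap to the nearest other exceeded, as a share of the group's range, the 95% critical value of Dixon's test; about 1 in 20 does so by chance. In the libraries labelled bleomycin KO, Hexa was lowest in KO 4 (917 CPM) and Psap highest in KO 1 (10716 CPM). In bleomycin WT, 3 of the 6 concern bleomycin WT 4, which was highest for Gm2a (7095 CPM), Atp6v1c1 (1318 CPM) and Atp6v1d (799 CPM), and Laptm5 was highest in bleomycin WT 2 (3343 CPM). No saline WT library was picked out this way.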

How the results depend on the processing

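The count of members called was 0 in each comparison with 12 libraries. For KO against saline WT it was 1 without a filter, 1 with DESeq2, 2 with limma-voom and 3 with 10 libraries, and for bleomycin WT against saline WT 3, 3, 2 and 2; leaving out each replicate gave 0 for KO and 0 to 1 for bleomycin WT. Other lysosomal genes called (0 with 12 libraries) numbered 1 with DESeq2, 3 with limma-voom and 3 with 10 libraries for KO against saline WT, and 2 without a filter, 2, 3 and 1 for bleomycin WT against saline WT. All genes called for KO against saline WT numbered 3, and 1 with DESeq2 size factors, 694 without a filter, 370 with DESeq2, 232 with limma-voom, 1 with the replicate block, 121 with 10 libraries and 0 to 18 (18 without bleomycin WT 4) with a replicate left out. For bleomycin WT against saline WT they numbered 4, and 1, 780, 499, 319, 2, 81 and 1 to 11 under the same settings. Between the bleomycin groups, 243 genes were called without a filter, 242 of them lower in libraries labelled KO, and 0 under every other setting. The median of members between the bleomycin groups ranged from -0.10 to 0.29 with a replicate left out (0.29 without bleomycin WT 2). Between 12 and 10 libraries, Gm2a turned from 1.68 to -0.037 in bleomycin WT against saline WT. Gaa, Neu1 and Idua turned there from below to above 0. In KO against saline WT, Gaa, Neu1 and Sgsh turned from below to above 0, and Arsb, Ppt1 and Cln3 from above to below. Over all settings, directions were read only for a chosen part of the members. Among these they turned for Laptm5 against saline WT (KO -0.0048 with limma-voom, and bleomycin WT -0.23 with limma-voom and -0.040 to 0.69 with a replicate left out). For Laptm4a against saline WT, KO gave 0.051 with the replicate block and -0.28 to 0.18 with a replicate left out (with 12 libraries -0.083), and bleomycin WT gave -0.14 with DESeq2 size factors, -0.16 with DESeq2, -0.20 with limma-voom, -0.47 with 10 libraries and -0.16 to 0.31 with a replicate left out (with 12 libraries 0.052). Between the bleomycin groups they turned for Gm2a (0.031 with limma-voom, -1.68 to 0.033 with a replicate left out, 0.052 with 10 libraries), Atp6v1c1 (0.041, -1.01 to 0.11, and 0.13) and Atp6v1d (-1.01 to 0.093 with a replicate left out, 0.11 with 10 libraries); the cause was not tested. Deviations of same-numbered libraries from their group means correlated at -0.182 to 0.0528. These values gave no sign of pairing by number but cannot exclude it, since saline WT 2 and bleomycin WT 4 entered the group means. With the replicate block 0 members were called in each comparison. Low members were limited by the depth of saline WT 2, where 18 of 48 had under 3 counts.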
